A study of Mus musculus with 6 samples.

Results

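Tnf, Tlr4, Tlr6 and Icam1 are 4 genes of innate immune signalling, and their RNA was followed in the left cochlea of mice after sound trauma. They were chosen by name from the authors' list of 1137 genes that were up-regulated in treated animals, so they are 4 of the 41096 genes of the deposited table. The group means in this list and in the list of down-regulated genes gave the same whole-number gene length in both groups when set against these 6 libraries (3865 of 3865 genes of both lists with a mean in each group), so the lists drew on the same libraries, although the methods name 5 animals per condition. The direction of their difference was therefore fixed by the choice, and the differences are given as a description. A test across all genes is given further on for the background, and its calls support nothing about the 4 genes.

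All animals were female C57BL/6 mice, 4 weeks old, exposed to a 16 kHz sound in the left ear for 4 h. The sound trauma group (specimens 6, 8 and 10, n = 3) received artificial perilymph, according to the methods of the study, whereas the sample labels name the exposure alone. The MSC treated group (specimens 13, 18 and 20, n = 3) had the same exposure and then received human mesenchymal stromal cells (MSCs), which were isolated from the connective tissue of umbilical cords known as Wharton's jelly. In the methods, 1 µl was injected into the left posterior semicircular canal 48 h after the sound and RNA was extracted 72 h after treatment, whereas the labels give 2 days between treatment and extraction. Both groups were sound exposed, both had the canal opened according to the methods, and no unexposed ear was analysed here. The treated group is a human-to-mouse graft, which limits it as a model of cell therapy within 1 species, and human RNA was not counted separately here. Each library came from 1 specimen, and p-values over these libraries measure only the spread between them.

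Toll-like receptors are sensors of microbial and damage-derived molecules. TLR4 recognises bacterial lipopolysaccharide together with CD14 and MD-2 as well as several molecules released by damaged cells, and TLR6 works as a partner of TLR2 in the recognition of diacylated lipopeptides. Through adaptor proteins and kinases, these receptors activate the NF-kappaB transcription factors, whose targets include Tnf, which encodes the cytokine TNF-alpha, and Icam1. ICAM-1 is an adhesion protein of endothelium and other cells to which leukocytes bind through the integrin LFA-1. In the noise-exposed cochlea, these molecules are known from studies of the inflammatory response, in which leukocytes enter the lateral wall and adjoining spaces.

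The sequences upstream of the genes are shown for 3 of the 4 genes, Tnf, Tlr6 and Icam1, to compare them for motifs of immune gene promoters. Tlr4 was not analysed in this way. They are RefSeq windows of assembly GRCm38.p6, 300 bases long, that cover 250 bases before the start and 50 bases after it, printed 5′ to 3′ along the gene. The windows found were those of Tnf (chr17:35201958-35202257, minus strand), Tlr6 (chr5:64959117-64959416, minus strand, the first of 2 windows) and Icam1 (chr9:21015690-21015989, plus strand). Capitals mark the matches to the 5 motifs first searched, on both strands.
Tnf: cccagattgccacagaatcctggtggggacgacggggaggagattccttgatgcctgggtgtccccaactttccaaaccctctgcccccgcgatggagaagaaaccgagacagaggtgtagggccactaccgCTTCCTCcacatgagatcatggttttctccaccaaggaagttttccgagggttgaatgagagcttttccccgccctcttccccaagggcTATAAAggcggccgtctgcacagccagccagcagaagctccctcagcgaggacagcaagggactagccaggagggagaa
Tlr6: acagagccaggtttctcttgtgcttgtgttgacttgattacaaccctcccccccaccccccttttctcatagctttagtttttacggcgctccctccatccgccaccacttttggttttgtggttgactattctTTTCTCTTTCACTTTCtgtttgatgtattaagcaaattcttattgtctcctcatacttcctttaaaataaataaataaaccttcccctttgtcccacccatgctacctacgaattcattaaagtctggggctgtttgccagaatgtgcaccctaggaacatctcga
Icam1: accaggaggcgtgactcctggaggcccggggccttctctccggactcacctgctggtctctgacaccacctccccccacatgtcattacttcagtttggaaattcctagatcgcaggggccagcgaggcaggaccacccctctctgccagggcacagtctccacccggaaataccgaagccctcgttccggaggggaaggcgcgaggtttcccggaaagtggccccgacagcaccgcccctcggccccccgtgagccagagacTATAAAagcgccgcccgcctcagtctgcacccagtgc
The Tnf window held 1 TATA box (TATAAA) at -29 to -24, counted in bases from the start, and 1 match to the PU.1 core (GAGGAAG) on the opposite strand at -118 to -112. The capitals in the Tlr6 window are 2 overlapping matches to the core of the interferon-stimulated response element, which is GAAA, any 2 bases and GAAA, on the opposite strand. Icam1 carried 1 TATA box, 14 to 19 bases past the annotated start. The second Tlr6 window (chr5:64959999-64960298) held 3 TATA boxes on the opposite strand. Of 32851 windows of this length in the mouse genome, 13.6% held a TATA box, 13.6% the PU.1 core and 3.44% the interferon-stimulated core. No match to the full NF-kappaB consensus of 10 bases, which opens with 3 G, was found in these 4 windows, where 8.46% of all windows had one. Without its first G, a form that was added after seeing the data and that 26.6% of all windows hold, the consensus was matched in Icam1 at -153 to -145 (ggaaattcc) and in Tnf at -212 to -204 (ggagattcc) and -194 to -186 (gggtgtccc). These places are in lower case in the sequences above, and no match to the shorter form was found in the Tlr6 windows. No match was found to the AP-1 motif (TGANTCA), where 7.81% had one. Of the motifs searched, TATAAA was the one with a match for all 3 genes. Only in Tnf did it lie before the start on the strand of the gene. In Icam1 it lay past the annotated start, and for Tlr6 it was on the opposite strand of the second window. Sequence further from the start was not examined.

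Tnf, the ligand of the group, had the lowest counts and the largest fold difference. It was covered by 13, 7 and 19 reads in sound trauma specimens 6, 8 and 10, and by 26, 20 and 27 reads in MSC treated specimens 13, 18 and 20. After the scaling of the libraries by the authors, these were scaled counts of 15.1, 6.69 and 16.97 against 27.0, 20.4 and 26.2. Each MSC treated animal was thus above each sound trauma animal, and specimen 8 was the lowest of all. The group means were 12.9 ± 5.47 and 24.5 ± 3.59 (SD, n = 3 each), a ratio of 1.90. The log2 fold change was 0.96 with a standard error of 0.42. Fold changes here and below are differences between group means of log2(scaled count + 1), so they need not equal the log2 of the ratio of means, and the added count of 1 draws those of genes with low counts towards 0.

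Depth limits what can be said of Tnf. The 7 reads of specimen 8 have a 95% exact Poisson interval of 2.81 to 14.4 reads, and the 26 reads of specimen 13 one of 16.98 to 38.1. These intervals cover counting error only. The coefficient of variation between MSC treated animals was 14.6%, where counting error alone gives 20.3%. Between sound trauma animals it was 42.4%, where counting error gives 27.7%. In bulk RNA of a whole cochlea, fewer cells of a type and less RNA per cell cannot be told apart, for Tnf and for each gene described here.

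Tlr4, the lipopolysaccharide receptor, was covered more deeply, by 125, 134 and 190 reads in sound trauma animals and 213, 181 and 168 reads in treated animals. The scaled counts were 145, 128 and 170 against 221, 185 and 163. The groups overlapped, since sound trauma specimen 10 was above MSC treated specimen 20. Means of 148 ± 20.9 and 190 ± 29.4 (SD, n = 3 each) gave a ratio of 1.29 and a log2 fold change of 0.36 with a standard error of 0.19. Variation between animals was 14.2% and 15.5%, above the 8.17% and 7.31% that counting error gives.

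Tlr6, the partner of TLR2, had 21, 37 and 52 reads in sound trauma animals and 44, 49 and 58 reads in treated animals. Scaled counts of 24.3, 35.4 and 46.5 stood against 45.7, 50.04 and 56.3. Specimen 6 was the lowest, and specimen 10 lay just above MSC treated specimen 13, so that the groups overlapped by these 2 animals. The means were 35.4 ± 11.1 and 50.7 ± 5.32 (SD, n = 3 each), a ratio of 1.43 and a log2 fold change of 0.55 with a standard error of 0.30. Tlr6 shares sequence with its neighbour Tlr1. Of the 50-base stretches of its longest GENCODE transcript, 12.6% also occur in other genes, nearly all of them in Tlr1. How the authors assigned such reads is not given in the sources used here, so the level of Tlr6 is uncertain by an amount that was not measured.

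Icam1, the adhesion molecule, was the most abundant of the 4 genes. It had 262, 286 and 390 reads in sound trauma animals and 508, 341 and 357 reads in treated animals. In scaled counts, these were 304, 273 and 348.4 against 528, 348.3 and 347. One MSC treated animal, specimen 13, stood well above the other 5, and the 2 others were at the level of sound trauma specimen 10. Means of 308.5 ± 37.7 and 408 ± 104 (SD, n = 3 each) gave a ratio of 1.32 and a log2 fold change of 0.38 with a standard error of 0.21. The variation of 25.6% between MSC treated animals compares with 4.99% from counting error. An antisense gene, Gm47079, overlaps Icam1 in the GENCODE annotation and holds 18.6% of the 50-base stretches of the longest Icam1 transcript. Whether reads were counted by strand is not given in the sources used here, so reads from the antisense gene could be included.

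**Figure D1:**
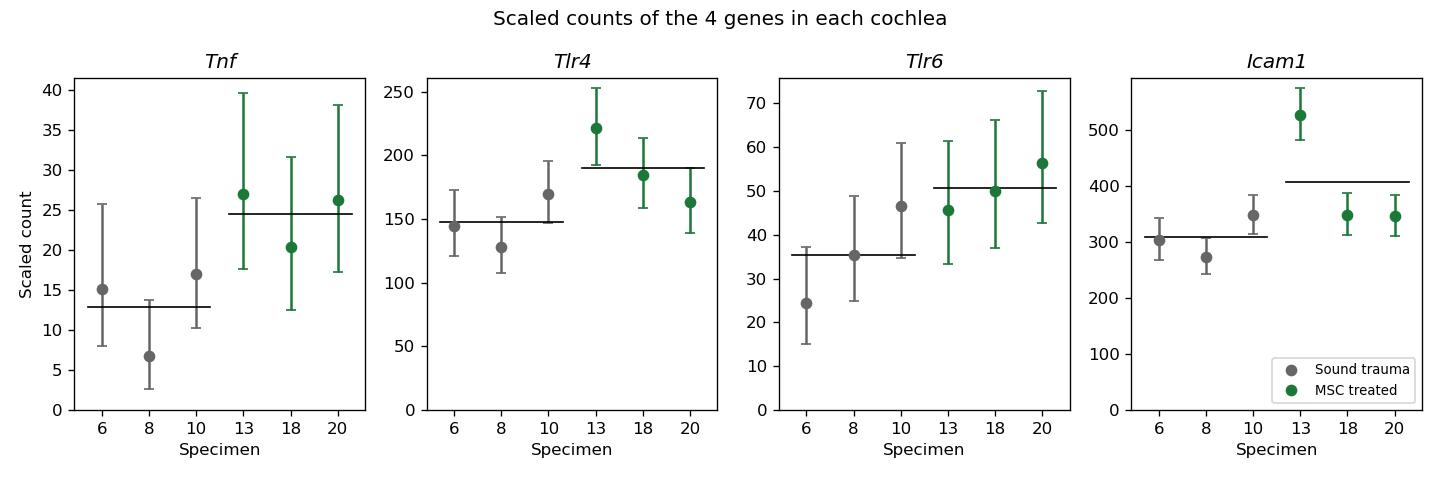
Scaled counts of Tnf, Tlr4, Tlr6 and Icam1 (y axes, scaled count, starting at 0) in each specimen (x axes), with sound trauma in grey and MSC treated animals in green; bars are 95% exact Poisson intervals of the reads, scaled alike, and lines are group means. Only for Tnf are the 3 MSC treated values all above the 3 sound trauma values, and Icam1 is highest in specimen 13, at 528.

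All 4 genes passed the filter on low counts. Of 15970 genes tested by limma, 0% were called higher at an adjusted p under 0.05, and 1.68% were higher at an unadjusted p under 0.05. None of the 4 genes was among either. On the recovered reads, 0 genes were called in either direction by DESeq2, by limma-voom or by the quasi-likelihood test of edgeR. At an unadjusted p under 0.05 in either direction, the counts were 799, 350 and 525 genes. The MSC treated values were all above the sound trauma values for 4.25% of tested genes, for 1 of the 4 genes (Tnf) and for 19.5% of the 1137 genes on the up-regulated list from which they came. As the list was made from this contrast, nothing is read from these shares.

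Specimen 10 was the highest sound trauma animal for each of the 4 genes. The same held for 80.2% of the genes on the up-regulated list and for 35.1% of all tested genes. The MSC treated mean was 1.45 times the value of specimen 10 for Tnf, 1.12 times for Tlr4, 1.09 times for Tlr6 and 1.17 times for Icam1. Against specimen 10 alone, without specimens 6 and 8, the log2 fold change was 0.50 for Tnf, 0.15 for Tlr4, 0.12 for Tlr6 and 0.20 for Icam1. Their standard errors were 0.42, 0.24, 0.30 and 0.29, for which the lone animal is assumed to vary like the treated ones. In scaled counts, specimen 13 was the highest of all animals for 3 genes, Tlr4, Icam1 and, by a narrow margin that is reversed in reads and FPKM, Tnf, as it was for 21.6% of the up-regulated list and 10.6% of all tested genes. Without it, the log2 fold change was 0.18 for Icam1, where all 6 animals gave 0.38, and 0.24 for Tlr4, where they gave 0.36. Without specimen 10, all 4 genes had MSC treated values above those of sound trauma, as had 18.9% of all tested genes and 74.4% of the tested genes on the up-regulated list, and the log2 fold change of Tnf was 1.19. Leaving out specimen 8 gave 0.58 for Tnf, and leaving out specimen 6 gave 0.31 for Tlr6.

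**Figure D2:**
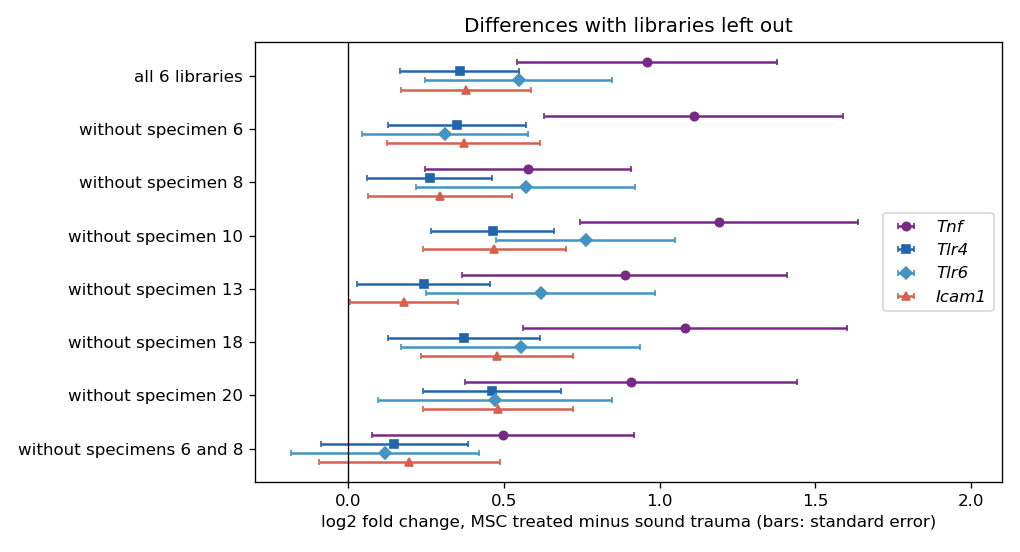
The log2 fold change of each gene (x axis, MSC treated minus sound trauma) with all 6 libraries and with libraries left out (y axis), with bars for the standard error. The values stay above 0 throughout, a sign largely fixed by the choice of the genes from the up-regulated list. They are lowest for 3 genes without specimens 6 and 8, at 0.15 for Tlr4, 0.12 for Tlr6 and 0.50 for Tnf, while Icam1 is lowest without specimen 13, at 0.18.

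Levels of different genes were compared per length, as FPKM, which is reads divided by the length of the gene and by the total of reads on genes. Lengths of 1639 bases for Tnf, 5646 for Tlr4, 3727 for Tlr6 and 2540 for Icam1 were obtained from the authors' mean FPKM and the reads. Icam1 had the highest level, with 10.6, 11.2 and 13.9 FPKM in sound trauma animals and 20.1, 14.6 and 14.4 FPKM in treated animals. Tlr4 followed with 2.28, 2.37 and 3.05 FPKM against 3.80, 3.50 and 3.05. Tlr6 was at 0.579, 0.991 and 1.26 FPKM against 1.19, 1.43 and 1.59. Tnf was at 0.815, 0.426 and 1.05 FPKM against 1.60, 1.33 and 1.69.

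The order Icam1, Tlr4 and then Tlr6 held in 6 of 6 animals. The level of Icam1 was 4.19 to 5.301 times that of Tlr4, and the level of Tlr4 was 1.91 to 3.93 times that of Tlr6. Tlr6 and Tnf did not differ beyond their spread, with a ratio between 0.710 and 2.32 and Tlr6 higher in 3 of 6 animals. The ratio of Icam1 to Tlr4 was 4.66 ± 0.0909 in sound trauma animals and 4.74 ± 0.557 in treated animals (SD, n = 3 each), so this pair kept nearly the same proportion in both groups. With the exonic length of Icam1 in GENCODE, which is 4360 bases, its mean level over 6 animals was 8.25 FPKM in place of 14.2, still above the 3.01 FPKM of Tlr4.

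**Figure D3:**
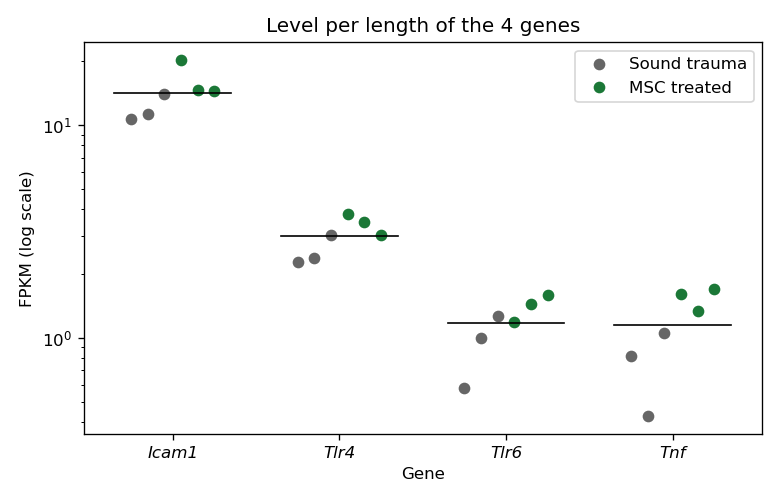
FPKM of Icam1, Tlr4, Tlr6 and Tnf (y axis, log scale) in the 6 animals, with sound trauma in grey, MSC treated in green and a line for the mean of all 6. Icam1 lies above Tlr4 and Tlr4 above Tlr6 in each animal, whereas Tlr6 and Tnf lie in the same range around means of 1.18 and 1.15 FPKM.

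Other genes of the pathway were taken from lists of Toll-like receptors, their adaptors, TNF receptors and ligands, NF-kappaB factors and targets, and adhesion molecules. Symbols came only from the authors' lists of changed genes, so a value could be given for 20 of the 163 list genes beside the 4 described, and each of them had been selected on these animals. In those lists, 19 were up-regulated and 1, Cx3cl1, was down-regulated. By limma, 19 passed the filter on low counts, 0 passed an adjusted p under 0.05 in either direction and 3 had an unadjusted p under 0.05, all of them higher in treated animals. That unadjusted share was 1.68% over all tested genes and 6.12% over the tested genes of the up-regulated list. The median log2 fold change of the 19 was 0.47, where it was 0.36 over the tested genes of the up-regulated list and 0.001 over all tested genes. With 1 library left out, the median of the named pathway genes, the 4 included, ranged from 0.30 (without specimen 6) to 0.61 (without specimen 10). Without specimens 6 and 8 this median was 0.13, and 19 of 24 were higher in treated animals, where all 6 animals gave 22 of 23. The filter was run anew, so these counts cover different numbers of genes. Over all tested genes, 49.8% and 50.2% were higher. The direction of the pathway genes was set by the choice, so nothing is read from these counts.

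Among the receptors, Tlr13, a sensor of bacterial ribosomal RNA, had scaled values of 107, 204 and 292 in sound trauma animals and 242, 309 and 351 in treated animals. Cd14, the co-receptor of TLR4, had 81.1, 110 and 172 against 216, 164 and 120. In both genes specimen 6 was the lowest, and specimen 10 lay within the range of the treated animals. Of 12 Toll-like receptors, Tlr4, Tlr6 and Tlr13 were the named ones, and Tlr2, the partner of TLR6, was not analysed here.

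Of the adaptors and kinases, 2 of 24 were named. Tirap, the adaptor that links TLR4 to MyD88, had scaled values of 269, 213 and 273 in sound trauma animals and 305, 319 and 310 in treated animals. These groups did not overlap, and the log2 fold change was 0.31 with a standard error of 0.15. Irak4, the kinase that acts after MyD88, had 115, 146 and 188.5 against 219, 199 and 162, which overlapped. Of the 19 NF-kappaB factors, kinases and inhibitors, 0 were named.

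On the TNF side, Tnfrsf1b, which encodes TNF receptor 2, had scaled values of 466, 493 and 778 in sound trauma animals and 824, 663 and 734 in treated animals. Here specimen 10 was above 2 of the 3 treated animals. Adam17, the protease that releases soluble TNF from the membrane, had 450, 470 and 583 against 619, 584 and 657, with specimens 10 and 18 nearly equal and no overlap. Ltb, which encodes lymphotoxin beta and lies beside Tnf, had 89.2, 161 and 127 against 182, 160 and 166, with specimens 8 and 18 almost level. Cd27, a co-stimulatory receptor of lymphocytes, had 31.3, 36.3 and 37.5 against 45.7, 55.2 and 56.3 and did not overlap. The anti-apoptotic Birc3 and Cflar and the receptors Tnfrsf9 and Tnfrsf13b had fold changes between 0.29 and 0.55 on the log2 scale, with overlapping groups.

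Among the cytokine and chemokine targets, 7 of 28 genes were named. Il1a, which encodes interleukin 1 alpha, had scaled values of 23.2, 23.9 and 27.7 in sound trauma animals and 44.7, 48.001 and 31.1 in treated animals. Il1rn, which encodes the antagonist of the interleukin 1 receptor, had 108, 125 and 95.6 against 181, 157 and 136. In both, the treated animals were all above the others, with log2 fold changes of 0.68 ± 0.28 for Il1a and 0.52 ± 0.19 for Il1rn (SE). Il1b overlapped widely, with 76.5, 101.3 and 50.9 against 162, 132 and 45.6.

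Of the chemokines that attract monocytes and other leukocytes, Ccl3 had 12.7, 7.65 and 15.2 against 50.9, 15.3 and 11.6. Ccl12 was at 5 reads in each sound trauma animal and at 24, 6 and 8 reads in treated animals, too few to pass the filter. In both, specimen 13 alone stood clearly apart. Ccl22 had 8.11, 14.3 and 19.7 against 30.1, 10.2 and 27.2, which overlapped. Cx3cl1, a membrane-bound chemokine abundant in neurons, went the other way, with 598, 1108 and 620 in sound trauma against 521, 555 and 514.5. Its treated values were all below those of sound trauma, and it was highest in specimen 8. Itgal, the alpha chain of the ICAM-1 ligand LFA-1, had 495, 771 and 1020 against 899, 896 and 1042, with specimen 6 the lowest and specimen 10 within the treated range. No other adhesion molecule of the list of 15 was named beside Icam1.

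Summed markers of leukocytes were also lower in specimens 6 and 8 than in the other animals. The 8 markers summed have a symbol because they too are on the up-regulated list, so their likeness to the 4 genes follows in part from that selection. The summed scaled counts of 3 of 9 macrophage markers (Cd68, Adgre1 and Mrc1) were 1502, 1726 and 3186 in sound trauma animals and 2719, 2779 and 2911 in treated animals. Those of 3 of 8 neutrophil markers (Ly6g, Mpo and Elane) were 8108, 10309 and 15636 against 11910, 14309 and 13013. Those of 2 of 6 lymphocyte markers (Cd4 and Ms4a1) were 204, 337 and 415 against 353, 513 and 551. Specimen 6 was lowest in each sum and specimen 10 highest of sound trauma. The neutrophil sum was mostly Mpo, with 6244 in specimen 6 and 12332 in specimen 10, where Ly6g had 78.8 and 202. Where in the dissected tissue the cells with these markers lay was not examined. Of single markers, Cd68 was lowest in specimen 8, with 812 against 854 in specimen 6, and Ms4a1 departed from its sum, with 203 in specimen 8 against 199 in specimen 10 and 174 in specimen 13. The part of these cells in the differences of the 4 genes was not tested, and Ptprc and markers of endothelium and erythrocytes were not analysed here.

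Markers of other tissues differed between libraries as well. Of 15 cochlear markers, the 5 named (Otog, Otoa, Pou4f3, Lhfpl5 and Otof, the last 3 of them hair cell genes) were detected in all 6 libraries. They summed to 1712, 1857 and 4286 in sound trauma animals and 2936, 3699 and 3094 in treated animals. This sum, like those of leukocytes, was lowest in specimens 6 and 8, and its 5 genes are also on the up-regulated list. The 6 brain markers summed to 3243, 17376 and 804 against 825, 1585 and 820. Each of the 6 was highest in specimen 8 and next in specimen 6, both of sound trauma. Gabra6 had 207 and 1431 in specimens 6 and 8, 0.893 in specimen 10 and 2.08, 6.13 and 3.88 in treated animals. For Slc17a7, specimens 6 and 18 were nearly level, at 1392 and 1348. All 6 are on the down-regulated list, so their direction was favoured by that selection. The 4 skeletal muscle markers summed to 515707, 19125 and 113386 against 275831, 39896 and 42800, with specimen 6 the highest and specimen 8 the lowest. Glia and myelin markers, 4 of 5 named, gave 20149, 28078 and 9282 against 8437, 20416 and 11134, so that specimens 6 and 18 were nearly level. Brain and muscle RNA thus differed between libraries of the same group, and brain RNA was highest in sound trauma specimens 8 and 6. The part of brain and muscle RNA in the scaled counts of the 4 genes was not tested. The share of reads on the top 20 genes was 5.39% in specimen 8 and 14.8% in specimen 6.

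**Figure D4:**
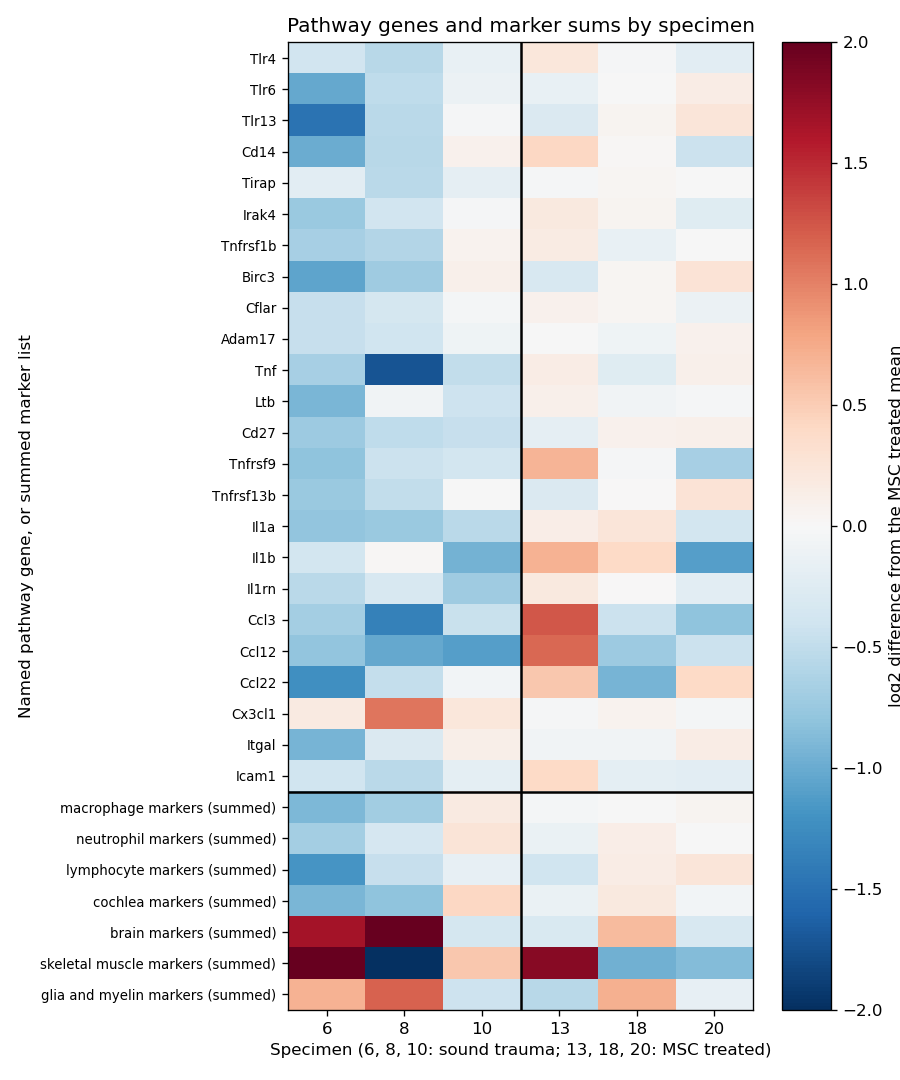
Each row is a named pathway gene or a summed marker list and each column a specimen, with sound trauma left of the black line. Colour is the log2 difference of the scaled count + 1 from the mean of the 3 MSC treated animals, with colours ending at -2 and 2. Specimens 6 and 8 are blue for nearly all pathway genes and for the leukocyte and cochlear sums. Specimen 10 is close to the treated animals in many rows. All the genes of these rows but Cx3cl1 are on the up-regulated list.

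Profiles over the 6 animals were compared among 3528 named and tested genes by the root mean square difference of centred log2 values. They describe likeness only, and the genes compared had all been selected on these animals. Nearest to Tlr6 was Cd53, a tetraspanin of leukocytes, with a difference of 0.030 and scaled counts of 327, 454 and 604 in sound trauma animals and 609, 628 and 712 in treated animals. Pot1b, a telomere-binding protein, followed at 0.034 and Cyp4f18, a cytochrome P450 enzyme, at 0.054.

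For Tlr4, the nearest were St6galnac2, a sialyltransferase, at 0.030, Syde1 at 0.062 and Ppp1r3b, a glycogen-targeting phosphatase subunit, at 0.064. Icam1 was nearest to Pdpn, which encodes podoplanin, at 0.075, then to Tlr4 at 0.0999 and to Tifab at 0.104. Tnf had no such close neighbour. Tmem37 at 0.234, Edn1, which encodes the vasoconstrictor endothelin 1, at 0.253 and Lrrc55 at 0.258 were the nearest. The measure is not divided by the spread of a gene, counting error included. The SD of the log2 values over the 6 animals was 0.69 for Tnf, 0.43 for Tlr6, 0.32 for Icam1 and 0.27 for Tlr4. The other pairs among the 4 genes differed by between 0.326 and 0.524.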

How the data were processed

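Total RNA of left cochleae was sequenced in 6 libraries, 3 of sound trauma and 3 of MSC treated mice. The authors used the AIR software to align them to the genome of C57BL/6NJ mice and deposited 1 signal per gene and library (41096 genes), namely the number of reads on the gene times a factor common to the library. The counting tool is not given in the sources used here. All values were whole multiples of that factor (tolerance 0.001), so reads were recovered. These came to 9170390 to 11030863 per library, with counting error as the only error they give. The authors also deposited lists of changed genes with mean FPKM per group, from which gene lengths were derived, and their FDR and fold changes, which were not used.

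The main test was limma-trend (limma 3.58.1, R 4.3.3) on log2(scaled count + 1) over 15970 genes passing filterByExpr, with Benjamini-Hochberg adjustment. Alternatives on the recovered reads were DESeq2 (1.42.0), limma-voom and the quasi-likelihood test of edgeR (4.0.16), along with other scalings, filters and pseudocounts and with libraries left out. Promoters came from RefSeq GRCm38.p6 and overlaps from GENCODE M21, whereas the files use another build, so no coordinates were transferred. The windows matched by symbol were those of Tnf, Tlr6 and Icam1. Protein sequences were not used here.

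The 4 genes and the lists were chosen with earlier results of these data known. Named in the text were the 4 genes, the list genes with a symbol and, for each of the 4, the 3 genes with the nearest profile.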

Additional observations from a re-analysis of the deposited data

How the results depend on the processing

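The log2 fold changes of the 4 genes stayed positive under each of the 17 alternatives (16 for Tnf, which could not be fitted at 10 reads or more in every library). As the genes were chosen from a list of up-regulated genes made from the same libraries, this sign was largely fixed by the choice. With other scalings, filters, pseudocounts and tests, Tnf ranged from 0.62 to 1.03, Tlr4 from 0.34 to 0.43, Tlr6 from 0.44 to 0.62 and Icam1 from 0.37 to 0.45. With 1 library left out, the ranges were 0.58 to 1.19, 0.24 to 0.46, 0.31 to 0.76 and 0.18 to 0.48. Leaving out specimens 6 and 8 together, chosen after seeing the data, gave 0.12 for Tlr6.

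The count of genes at an adjusted p under 0.05 in limma was 0 in all alternatives except without specimen 10, where it was 1, with a range of 0 to 1 over the libraries left out. At an unadjusted p under 0.05 there were 376 genes, 525 with edgeR, 799 with DESeq2, 350 with limma-voom and 726 with no filter beyond 1 read, and 175 to 2544 with 1 library left out, the highest without specimen 10. The cause was not tested. The number of the 4 genes without overlap, 1 in all 6 libraries, was 1 to 4 with 1 library left out, where 6.75% to 18.9% of all tested genes did not overlap upward, and 2 with libraries scaled to total counts (Tnf and Icam1), where 5.23% did. Both were added after seeing the data. Leaving out specimen 13 or 20 gave 2, where 10.5% and 6.89% did, and leaving out specimen 10 gave 4. The mean level of Icam1 was 8.25 FPKM with its GENCODE exonic length. Of 8 promoter motif matches, 7 were in the 250 bases before the start. With the NF-kappaB consensus shortened by its first G there were 13, with 2 places that match on both strands counted on each. No paired analysis was possible because the groups share no specimen numbers. Tnf had 7 to 27 reads per library, so its counting error was large, and in sound trauma its variation of 42.4% was larger still than the 27.7% of counting error.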
